A study of Mus musculus with 20 samples.

Results

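Gene expression was compared between mice that lack the erythropoietin receptor gene in their type 1 conventional dendritic cells (cDC1s) and controls, in the CCR7+ cDC1s of the spleen. The comparison rests on 6 of the 20 RNA sequencing libraries of the study, chosen by their sample labels, and covers every gene in their count table. The 3 control libraries came from Epor flox/flox mice, in which loxP sites flank part of the gene. The 3 cKO libraries came from Epor-Xcr1-Cre conditional knockout mice, in which Cre recombinase is driven by Xcr1, the gene of a chemokine receptor carried by cDC1s. The labels give all 6 as CCR7+ cDC1s that are XCR1+ and SIPRa-, in the labels' spelling, read here as the surface protein SIRPa. They do not describe how the cells were isolated. The labels give these mice no age, sex or treatment. The controls are named by the floxed allele alone, so an effect of Cre and an effect of the loss of Epor cannot be told apart. The labels do not say whether the 3 libraries of a group came from separate mice, and the p-values below therefore measure only the spread between these libraries. Another 6 libraries, of cDC1s with the same surface markers, labelled as migratory, from peripheral lymph nodes of the same 2 genotypes, entered the same fit and are used to say where the spleen differs.

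The erythropoietin receptor (EpoR) signals through the kinase JAK2 and the transcription factor STAT5, and is best known for keeping red cell precursors alive. cDC1s take up dying cells, present their antigens on MHC class I to CD8 T cells, and depend on the transcription factors IRF8 and BATF3. CCR7 guides mature dendritic cells towards T cell zones, and its appearance accompanies a maturation programme that can follow either infection or the uptake of apoptotic cells.

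The 6 spleen libraries held between 26618029 and 44564429 counts, so that 3 counts in a library correspond to between 0.0731 and 0.12 CPM (counts scaled to the library's effective depth). Control replicate 3 stood apart from controls 1 and 2 in Lars2 and Gm23935. Lars2, the gene of mitochondrial leucyl-tRNA synthetase, had 12738, 11434 and 79975 CPM in controls 1 to 3 and 55279, 47504 and 62627 CPM in the cKO libraries. The short annotated feature Gm23935 had 8911, 6960 and 31721 CPM in controls and 23492, 19153 and 27697 CPM in cKO. In both features control 3 lay above every cKO library, and controls 1 and 2 lay below them. In lymph node Lars2 had 2327, 16847 and 3352 CPM in controls and 18181, 3627 and 17824 CPM in cKO, which overlapped. An alternative fit treated Lars2 and Gm23935 as features of ribosomal RNA type and left them out with others of that type. It called 107 genes in spleen, where the main fit called 106. Leaving features out does not take away a difference between libraries that shows in them. With their level as a covariate, an alternative chosen after seeing the data, 57 genes were called, 47 of them among the 106. Over all genes the chi-square per degree of freedom between raw counts was 160 and 134 for control 3 against controls 1 and 2, but between 28.8 and 53.2 against the cKO libraries. Features with many counts, such as Lars2 and Gm23935, weigh most in this value. Pearson's r of log2 CPM over all tested genes was 0.965 and 0.974 for control 3 against controls 1 and 2. It was 0.960 between controls 1 and 2, and between 0.979 and 0.980 for control 3 against the cKO libraries. The part of RNA quality or library preparation in the results was not tested, and counts of called genes are given with and without this library.

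**Figure D1:**
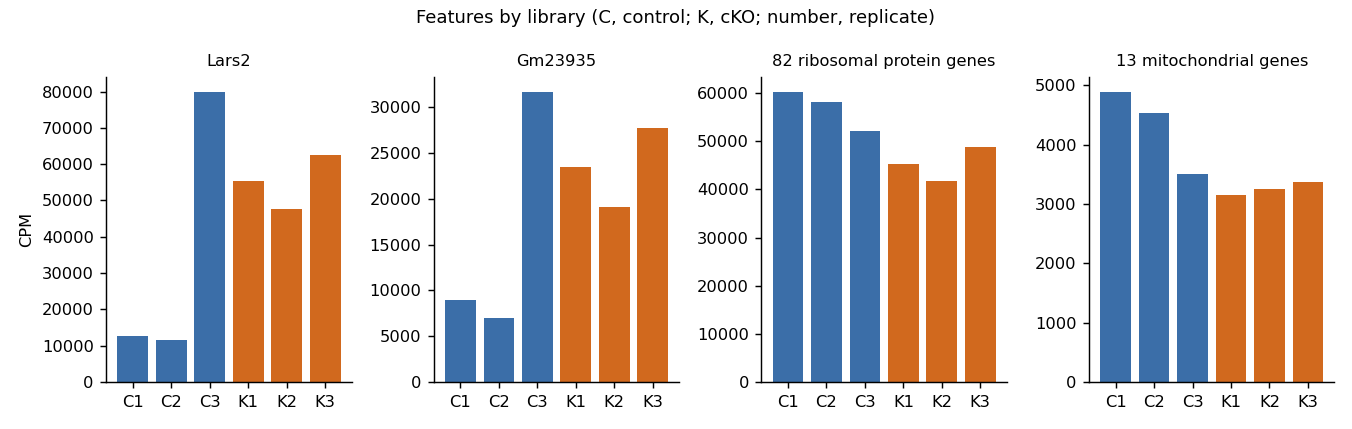
Level in CPM, on axes that start at 0, of Lars2, Gm23935, the summed cytosolic ribosomal protein genes and the summed mitochondrially encoded genes in each spleen library (blue, control; orange, cKO). Control replicate 3 has the highest Lars2 level, 79975 CPM, while its ribosomal protein sum of 52066 CPM lies between those of the other controls and those of the cKO libraries.

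The targeted gene was at the edge of detection. Epor (chr9:21958897-21963506) had 1, 0 and 6 counts in the controls and 0, 2 and 0 counts in the cKO libraries, a cKO to control ratio of 0.244 per effective depth (95% exact interval 0.0247 to 1.28). Intervals and floors here cover counting error only. Most control counts came from replicate 3, and without it the ratio was 1.13. The spleen libraries therefore give no check of the deletion. In lymph node the controls had 24, 28 and 4 counts and the cKO libraries 0, 0 and 0. Which exons the loxP sites flank is not given in the labels, and reads can remain after a deletion.

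Of 17362 genes tested, 106 passed the threshold (0.611%), by edgeR's quasi-likelihood test at a Benjamini-Hochberg adjusted p of 0.05, which is the test behind every adjusted p given here. Of these, 85 were higher in cKO (0.49%) and 21 were lower (0.121%). Antibody genes made up 36 of the 106, with 33 higher and 3 lower. Outside the antibody loci 52 genes rose, with a median log2 fold change of 1.00, and 18 fell, with a median of -0.55. Of these 52 rises, 18 started from a control mean under 1 CPM and 26 from 10 CPM or more. Of the 18 falls, 17 were of genes at 10 CPM or more in controls. In all 106 genes the 3 cKO libraries did not overlap the 3 controls. Non-overlap alone was common, since 9.54% of all genes tested lay higher in every cKO library than in every control and 8.42% lay lower. At an unadjusted p under 0.05, 7.38% of all genes tested were higher and 5.6% lower. The unadjusted counts of the lists below are to be read against these 2 shares. Their counts of called members are to be read against 0.49% higher and 0.121% lower. Their counts without overlap are to be read against 9.54% higher and 8.42% lower. Over all genes the median log2 fold change was 0. Without control replicate 3 the count of called genes was 379 (317 higher, 62 lower), without cKO replicate 1 it was 33, without cKO replicate 2 it was 31 and without cKO replicate 3 it was 57. Without scaling beyond library size the split was 102 higher and 9 lower. With antibody, plasma cell and B cell genes left out before the fit, 20 genes passed, all of them among the 106. Of the named genes past the threshold, 40 lost the call without cKO replicate 1, 40 without cKO replicate 2, 24 without cKO replicate 3, 29 without control replicate 1, 24 without control replicate 2 and 0 without control replicate 3, while none changed direction.

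The JAK2-STAT5 pathway downstream of EpoR held no called gene among its 29 tested members. At an unadjusted p under 0.05, 6 members were higher and 2 lower (7.38% and 5.6% over all genes), 4 lay higher and 4 lower without overlap, and the list's median log2 fold change was 0.00. Ccnd3, which encodes cyclin D3, was the member with the smallest p. It had 123, 116 and 142 CPM in controls and 163, 167 and 154 CPM in cKO (log2 fold change 0.34 ± 0.10 SE, adjusted p = 0.139). The groups of Ccnd3 did not overlap. Other members were chosen after their values were seen. Stat5b, one of the STAT5 genes, had 49.5, 59 and 57 CPM in controls and 73.5, 78.2 and 69.1 CPM in cKO (adjusted p = 0.139). Socs2, a feedback inhibitor that STAT5 induces, had 648, 657 and 675 CPM against 587, 580.0 and 570.2 CPM (adjusted p = 0.175). Neither Stat5b nor Socs2 overlapped between groups, and they lay in opposite directions. Pim1, a kinase gene that STAT5 induces, had a log2 fold change of 0.00 ± 0.15.

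The genes of the surface markers that the labels name as positive were present in every library. Xcr1 had 89.9, 108 and 86.5 CPM in controls and 76.8, 80 and 78.9 CPM in cKO (log2 fold change -0.27 ± 0.15, adjusted p = 0.463). Cd8a, carried by splenic cDC1s, had 1001, 978 and 1194 CPM against 942, 953 and 876 CPM (-0.20 ± 0.09, adjusted p = 0.352). Ccr7 had 4606, 4978 and 4409 CPM against 5250.0, 5703 and 4769 CPM (0.17 ± 0.08, adjusted p = 0.389). For Xcr1 and Cd8a every cKO library lay below the controls without passing the test, and for Ccr7 the groups overlapped. Sirpa, a marker of type 2 conventional dendritic cells (cDC2s), lay between 11.8 and 15 CPM in controls and between 12.8 and 17.4 CPM in cKO.

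Of 32 tested genes of cDC1 identity, 3 rose and none fell (0.49% and 0.121% over all genes). All 3 encode proteins of the endosome or lysosome. Rab7b (chr1:131688695-131715439), a small GTPase of late endosomes, had 70.1, 65 and 69.6 CPM in controls and 109, 108 and 93.7 CPM in cKO (0.60 ± 0.10, adjusted p = 0.0147). Naaa (chr5:92257659-92278170), a lysosomal acid amidase, had 148, 177 and 159 CPM against 240.3, 246 and 237 CPM (0.58 ± 0.10, adjusted p = 0.0164). Ppt1 (chr4:122836242-122859175), which removes palmitate from proteins in the lysosome, had 382, 400.0 and 402 CPM against 562, 615 and 528 CPM (0.53 ± 0.11, adjusted p = 0.0427). In each of these genes the lowest cKO library was above the highest control. Over the whole list the median log2 fold change was 0.09. Without overlap, 12 members lay higher and 6 lower (9.54% and 8.42% over all genes). At an unadjusted p under 0.05, 9 were higher and 5 lower (7.38% and 5.6% over all genes). The transcription factors of the lineage did not pass. Irf8 had a log2 fold change of 0.07 ± 0.07 and Zbtb46, a factor of conventional dendritic cells, one of 0.12 ± 0.12. Batf3 had 724, 721 and 829 CPM in controls and 638, 597 and 682 CPM in cKO (-0.25 ± 0.08, adjusted p = 0.20), lower without overlap. These factors were chosen after their values were seen. The 3 called genes became 1 without control replicate 1, and 0 without cKO replicate 1 or without cKO replicate 2.

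The maturation genes that accompany CCR7 held no called gene among 51 tested, and 2 were higher and 7 lower at an unadjusted p under 0.05. Without overlap, 19 of the 51 lay lower and 3 higher (8.42% and 9.54% over all genes), with a median log2 fold change of -0.08. The 19 became 6 without scaling beyond library size. Birc2, an inhibitor of apoptosis that also acts in NF-kB signalling, had the smallest p, with 709, 756 and 762 CPM in controls and 614, 617 and 648 CPM in cKO (-0.24 ± 0.06, adjusted p = 0.0974). The BCL2 family and other survival genes likewise held no called gene among 30 tested, with 3 higher and 8 lower at an unadjusted p under 0.05. Of these 30, 10 lay lower and 4 higher without overlap (8.42% and 9.54% over all genes), and the median was -0.16. Cflar, an inhibitor of caspase 8, had 671, 693 and 621 CPM in controls and 524, 542 and 536 CPM in cKO (-0.31 ± 0.08, adjusted p = 0.0931). Every cKO library of Birc2 and of Cflar lay below the controls.

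Single genes of antigen presentation, adhesion and cell shape rose. Among 26 genes of the MHC class II pathway 1 passed, H2-DMb1 (chr17:34153072-34160230), a chain of the H2-DM complex that helps load peptides onto class II molecules. H2-DMb1 had 143, 168 and 182 CPM in controls and 235, 249 and 225 CPM in cKO (0.52 ± 0.09, adjusted p = 0.0173). The list's median was 0.07, with 3 members higher and 3 lower at an unadjusted p under 0.05, near the shares over all genes. Among 41 migration and adhesion receptors the integrin chains Itgb2 and Itgb7 rose. Itgb2 (CD18, the common chain of the leukocyte integrins, chr10:77530252-77565708) had 19.4, 29.2 and 24.7 CPM in controls and 46.4, 47.6 and 40.6 CPM in cKO (0.88 ± 0.17, adjusted p = 0.0288). Itgb7 (chr15:102215995-102231944), which pairs with the integrin alpha 4 and alpha E chains, had 33.1, 37.4 and 30.6 CPM against 61.6, 53.9 and 56.1 CPM (0.76 ± 0.15, adjusted p = 0.0304). The groups of neither integrin overlapped. Itgae, the alpha E chain, chosen after its values were seen, had 2.09, 3.45 and 3.71 CPM in controls and 10.9, 6.56 and 6.75 CPM in cKO (1.39 ± 0.39, adjusted p = 0.143). Neither Itgb2 nor Itgb7 passed without control replicate 1, without cKO replicate 1 or without cKO replicate 2. Without cKO replicate 3 only 1 of the migration and adhesion receptors passed. Rac2 (chr15:78559167-78572783), a GTPase of blood cells that drives actin remodelling, was the called member of the 42 tested genes of apoptotic cell uptake and of the 35 of MHC class I and cross-presentation. It had 34.3, 34.5 and 36.8 CPM in controls and 56, 55.8 and 48.5 CPM in cKO (0.60 ± 0.12, adjusted p = 0.0314). Rac2 did not pass without control replicate 1 or 2 or cKO replicate 1 or 2, and H2-DMb1 did not pass without cKO replicate 1 or 2.

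Tropomyosins, which line actin filaments, changed in opposite directions. Tpm2 (chr4:43514711-43523765) had 31.3, 31.3 and 30.4 CPM in controls and 61.4, 55.1 and 56 CPM in cKO (0.89 ± 0.14, adjusted p = 0.00636). Tpm1 (chr9:67022590-67049406) had 244, 269 and 239 CPM against 192, 191 and 193 CPM (-0.39 ± 0.08, adjusted p = 0.0363). No cKO library of either gene reached the range of the controls. Tpm2 did not pass without cKO replicate 1, and Tpm1 passed only where control replicate 3 was the library left out. Plbd1 (chr6:136612070-136661928), a phospholipase B-like protein, had 187, 236 and 249.8 CPM in controls and 361, 415 and 342 CPM in cKO (0.73 ± 0.14, adjusted p = 0.0282). Rnpep (chr1:135262712-135284084), an aminopeptidase, had 15.4, 20.3 and 17.5 CPM against 31.1, 28.5 and 32.2 CPM (0.79 ± 0.14, adjusted p = 0.0229). The lysosome and autophagy list as a whole held no called gene among 45, with a median of 0.06.

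**Figure D2:**
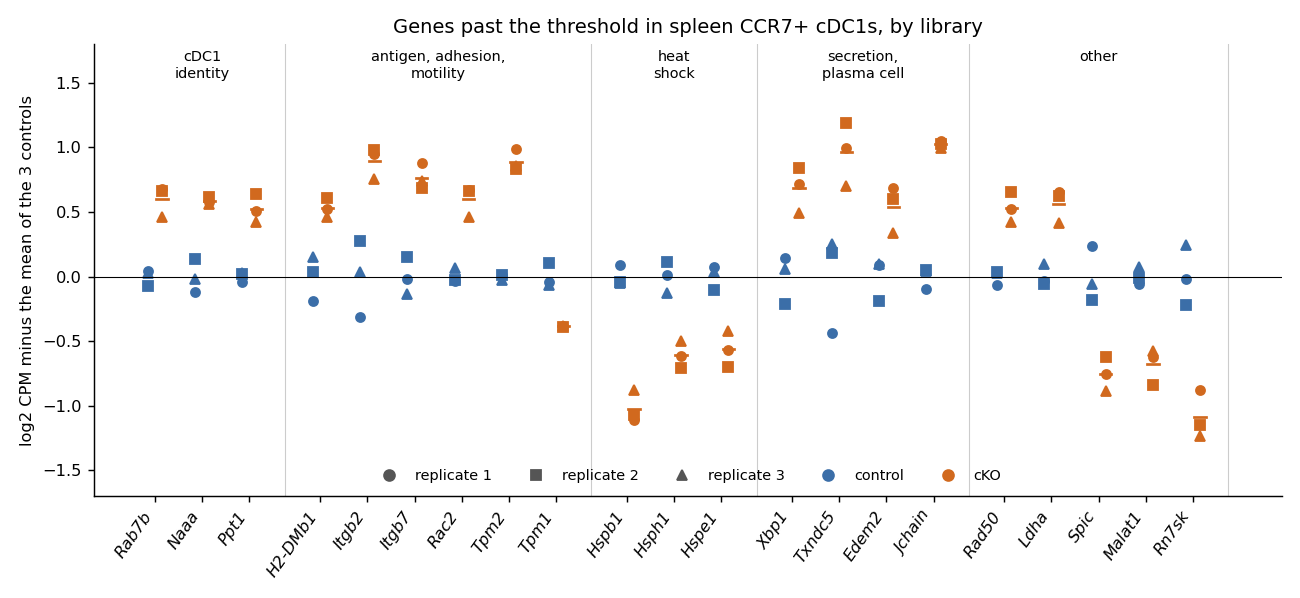
Log2 CPM of genes past the threshold in each spleen library, minus the mean of the 3 controls (blue, control; orange, cKO; marker shape, replicate number; bar, cKO mean). The cKO libraries lie to one side of all controls in each gene drawn, and the log2 fold changes run from -1.09 for Rn7sk to 1.02 for Jchain.

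Of 49 tested genes of heat shock proteins and chaperones, 3 fell and none rose (0.121% and 0.49% over all genes). Heat shock genes are induced by the factor HSF1, which binds repeats of the unit GAA and its complement TTC. Promoters of the 3 genes are shown because all 3 fell and all hold pairs of such units. The stretches come from the RefSeq promoter windows of GRCm38.p6 and are written 5′ to 3′ on the strand of the gene, with capitals marking every TTCNNGAA or GAANNTTC.
Hspb1: gaGAAGTTTCcagatgggggcaGAACCTTC
Hspe1: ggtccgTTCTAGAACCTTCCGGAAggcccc
Hsph1: cattgggtagaatctTTCTCGAAggctcga
The Hspb1 stretch (chr5:135887800-135887829, plus strand) lies 119 to 90 bases before the start and overlaps no annotated exon. The Hspe1 stretch (chr1:55088053-55088082, plus strand) lies 95 to 66 bases before the start and holds 3 overlapping pairs. It overlaps an exon and UTR of the neighbouring gene Hspd1 on the other strand. The Hsph1 stretch (chr5:149636355-149636384, minus strand) lies 48 to 19 bases before the start and overlaps a UTR exon of longer Hsph1 transcripts. Pairs of units, searched on both strands, were present in 15.1% of all 32851 promoter windows of 300 bases, and 3 units in a row in 0.603%. Of the 40 heat shock and chaperone genes matched to a window, 17 held a pair and 5 held 3 units in a row in any of their windows. These are counts of genes, whereas the shares above are of windows, so the 2 are not directly comparable. The STAT motif TTCNNNGAA, present in 8.30% of windows, was absent from the window that holds each of the 3 printed stretches. Hsph1 has 2 windows, and only that of the printed stretch was searched for its own count. A match is a description of the letters and not a measured site.

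Hspb1 (chr5:135887919-135889563), a small heat shock protein, had 53.8, 49.2 and 48.8 CPM in controls and 23.4, 24 and 27.5 CPM in cKO (-1.02 ± 0.14, adjusted p = 0.00291). Hsph1 (chr5:149614287-149636376), an HSP110 chaperone, had 310.0, 333 and 283 CPM against 201, 189 and 218 CPM (-0.61 ± 0.09, adjusted p = 0.00536). Hspe1 (chr1:55088132-55091307), the co-chaperonin HSP10, had 416, 368 and 405 CPM against 267, 243 and 296 CPM (-0.56 ± 0.09, adjusted p = 0.00819). All 3 genes were lower in every cKO library. Hspd1, the chaperonin HSP60 that works with HSP10 and lies head to head with Hspe1, had 148, 160.0 and 156 CPM in controls and 147, 149 and 152 CPM in cKO (-0.05 ± 0.09, adjusted p = 0.872). Hspd1 and the members that follow were chosen after their values were seen. Hspa1b, an inducible HSP70, had 1751, 1798 and 1781 CPM in controls and 1422, 1443 and 1302 CPM in cKO (-0.36 ± 0.08, adjusted p = 0.0509). Its near-identical copy Hspa1a shares reads with it, so that the value of either is uncertain. Hsp90aa1, an inducible HSP90, had 1012, 1151 and 994 CPM against 768, 711 and 789 CPM (-0.48 ± 0.10, adjusted p = 0.0527). Hsf1 itself had 8.74, 14.4 and 12.3 CPM in controls and 24.1, 28.6 and 17.7 CPM in cKO (0.99 ± 0.22, adjusted p = 0.0528), higher without overlap. Over the list the median was -0.03, with 7 members higher and 12 lower at an unadjusted p under 0.05. In lymph node 2 members of the list fell and none rose, with a median of -0.17. Hspb1, Hsph1 and Hspe1 did not pass there. Hspe1 did not pass without cKO replicate 1 or without cKO replicate 2, and Hsph1 did not pass without cKO replicate 2.

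Antibody transcripts were higher in cKO. Summed over all antibody genes they made up 2671, 2668 and 2536 CPM in controls and 5706, 6019 and 5388 CPM in cKO. Of the 12 tested constant genes 5 rose, none fell and 10 lay higher without overlap, with a median log2 fold change of 1.17. The same number of constant genes, 5, rose when any 1 spleen library was left out. Igha (chr12:113254830-113260236), the IgA heavy chain, had 1021, 1080.1 and 975 CPM in controls and 2215, 2286 and 2163 CPM in cKO (1.12 ± 0.10, adjusted p = 3.93e-05). Ighg3 (chr12:113356224-113361232), the IgG3 chain, had 12.8, 14.4 and 15.4 CPM against 37.3, 37.1 and 33.6 CPM (1.34 ± 0.21, adjusted p = 0.00649). Iglc1 (chr16:19061618-19062071), a lambda light chain, had 35.7, 32.3 and 38.3 CPM against 122, 119 and 113 CPM (adjusted p = 0.000523). In these 3 genes every cKO library lay above the highest control. Igkc and Ighg2b were the other called constant genes, at log2 fold changes of 1.13 and 4.97. Ighd, the IgD chain of naive B cells, had 10.1, 17.8 and 15.7 CPM in controls and 15.7, 11.9 and 10.5 CPM in cKO and overlapped (adjusted p = 0.795).

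The libraries of a group carried much the same V segments, the variable parts of antibody genes that B cells recombine. Of 151 tested V segments 28 rose and 3 fell. At 1 CPM or more, 106 of the 348 V segments in the table were present in all 3 cKO libraries, 60 in all 3 controls and 55 in all 6. Of the 106, 12 had 0 counts in every control, and of the 60, 1 had 0 counts in every cKO library. The summed kappa V segments lay between 242 and 268 CPM in controls and between 553 and 693 CPM in cKO. A fixed cut of 1 CPM therefore mixes level with presence, and these counts do not compare the breadth of the V segments. Igkv3-5 (chr6:70663275-70663895) had 0 counts in the 3 controls and 7.14, 10.1 and 8.53 CPM in cKO, at least 246-fold higher against a floor of 3 counts over the control group (adjusted p = 0.00112). Igkv3-9, chosen after its values were seen, had 178 counts in controls and 0 in cKO, at least 69.4-fold lower on the same floor. As a description, Pearson's r of log2 CPM over V segments was between 0.932 and 0.950 for the 3 pairs of controls, 0.972 for each of the 3 pairs of cKO libraries, and between 0.641 and 0.702 for the 9 pairs across groups. Over all genes r was between 0.960 and 0.974 within controls, between 0.985 and 0.986 within cKO, and between 0.962 and 0.980 across groups, ranges that overlap between pairs of controls and pairs across groups. Whether a group's libraries were made from 1 pool of cells is not stated in the labels and was not tested.

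**Figure D3:**
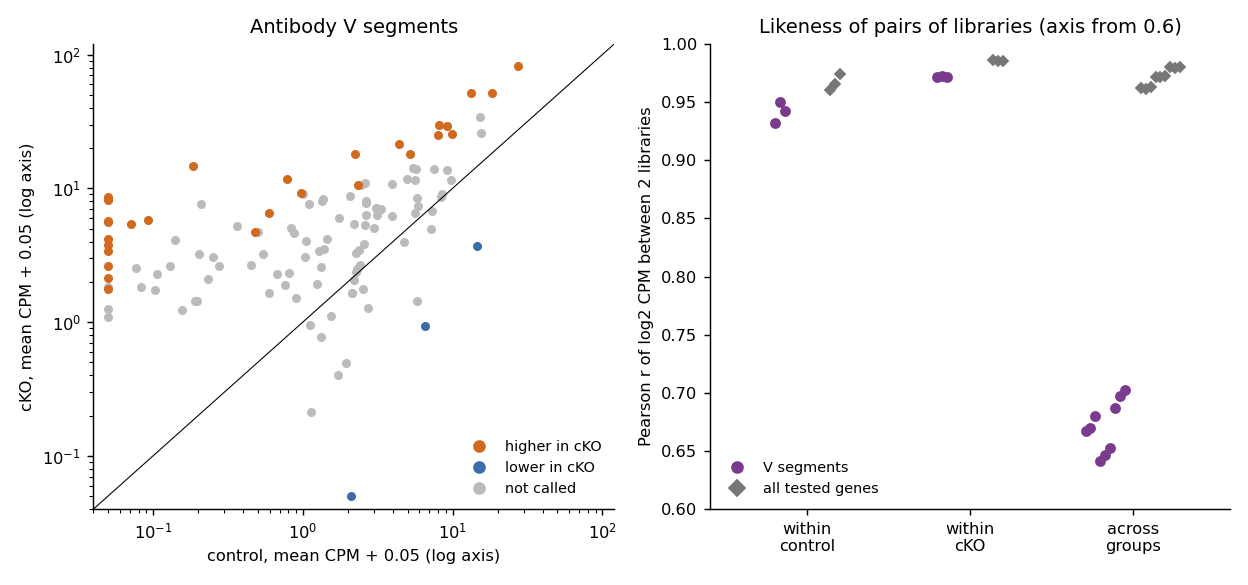
Left, mean CPM plus 0.05 of each antibody V segment in controls and in cKO on log axes (orange, higher in cKO; blue, lower; grey, not called; line, equality). Right, Pearson's r of log2 CPM between pairs of libraries over V segments and over all tested genes, on an axis from 0.6, where V segments reach 0.972 within cKO but no more than 0.702 across groups.

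Plasma cell markers were higher alongside the antibody genes. Of 19 tested, 4 rose (Jchain, Xbp1, Txndc5 and Edem2), none fell and 11 lay higher without overlap, with a median log2 fold change of 0.90. Xbp1 (chr11:5520659-5525893), a factor of the unfolded protein response and of secretory cells, had 59.5, 46.5 and 56.1 CPM in controls and 88.4, 96.2 and 75.7 CPM in cKO (0.68 ± 0.12, adjusted p = 0.0226). Txndc5 (chr13:38500079-38528824), a protein disulfide isomerase of the endoplasmic reticulum (ER), had 24.8, 38.2 and 40 CPM against 66.8, 76.5 and 54.7 CPM (0.94 ± 0.18, adjusted p = 0.026). Edem2 (chr2:155701677-155729475), which trims sugars from misfolded ER proteins, had 59.8, 49.3 and 60.3 CPM against 90.4, 85.4 and 71.1 CPM (adjusted p = 0.0355). In all 3 genes the groups did not overlap. Sdc1, the defining surface marker CD138, chosen after its values were seen, had 0.121, 0.482 and 1.25 CPM in controls and 4.12, 2.9 and 4.45 CPM in cKO (2.63 ± 0.66, adjusted p = 0.0954). None of the plasma cell markers was at 0 in every spleen library, and their summed level lay between 900.4 and 987 CPM in controls and between 1418 and 1509 CPM in cKO. Much of this sum and of its rise was Jchain. Jchain had 345, 382 and 380.1 CPM in controls and 764, 753 and 734 CPM in cKO (1.02 ± 0.07, adjusted p = 2.61e-06). In bulk RNA, more cells of a type and more RNA per cell cannot be told apart, and dendritic cells also express Xbp1. Of 33 tested genes of the unfolded protein response, which share Xbp1 with this list, 1 rose, 8 were higher and none lower at an unadjusted p under 0.05, and the median was 0.19. The part of plasma cell RNA in these values was not tested. The plasma cell count fell to 1 without cKO replicate 1 or cKO replicate 2, and to 2 without control replicate 2.

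Ribosomal protein genes lay lower in cKO without any passing the threshold. Of 82 tested, 53 were lower and 1 higher at an unadjusted p under 0.05, 63 lay lower and 1 higher without overlap, and the median log2 fold change was -0.34. Their summed level was 60319, 58193 and 52066 CPM in controls and 45315, 41757 and 48752 CPM in cKO. The sums of the groups did not overlap, but the 63 genes became 23 without scaling beyond library size, at a median of -0.32, and 76 without control replicate 3. With the level of Lars2 and Gm23935 as a covariate the median was -0.19. Rpl29, the member higher without overlap, had 79.8, 77.1 and 62.9 CPM in controls and 117, 109 and 128 CPM in cKO (0.68 ± 0.15, adjusted p = 0.0505). In lymph node Rpl29 was also higher and passed (1.36 ± 0.15, adjusted p = 0.000136). The 12 tested mitochondrially encoded genes also had no call, with a median of -0.43 and 3 lower without overlap. Their number lower without overlap was 11 without control replicate 3, and with the covariate the median was -0.07. Among 70 nuclear genes of oxidative phosphorylation none passed, 13 were lower and none higher at an unadjusted p under 0.05, and the median was -0.11.

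Of 7 tested nuclear-retained or non-polyadenylated RNAs, Malat1 and Rn7sk fell, and the median was -0.52. The summed level of the list did not follow that median. It was 35548, 34747 and 104634 CPM in controls and 70956, 61226 and 78904 CPM in cKO, which overlapped. The spleen libraries ranked in this sum in the same order as in Lars2 and Gm23935, with control replicate 3 highest. Malat1 alone had 20894, 21560 and 22898 CPM in controls and 14135, 12170 and 14595 CPM in cKO (adjusted p = 0.0101). Rn7sk (chr9:78175303-78175633), the RNA that holds the elongation factor P-TEFb inactive, had 60.7, 52.6 and 72.6 CPM in controls and 33.5, 27.7 and 26.1 CPM in cKO (-1.09, adjusted p = 0.00789). Gas5 (chr1:161034422-161038539), a host gene of small nucleolar RNAs, had 561, 519 and 521 CPM against 372, 348 and 419.7 CPM (-0.49 ± 0.10, adjusted p = 0.044). Every cKO library of Rn7sk and Gas5 was below the controls. Neither Malat1 nor Rn7sk passed without cKO replicate 2, Malat1 did not pass without cKO replicate 1, and Rn7sk did not pass without cKO replicate 3. Gas5 passed without control replicate 3 but with none of the other 5 spleen libraries left out.

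**Figure D4:**
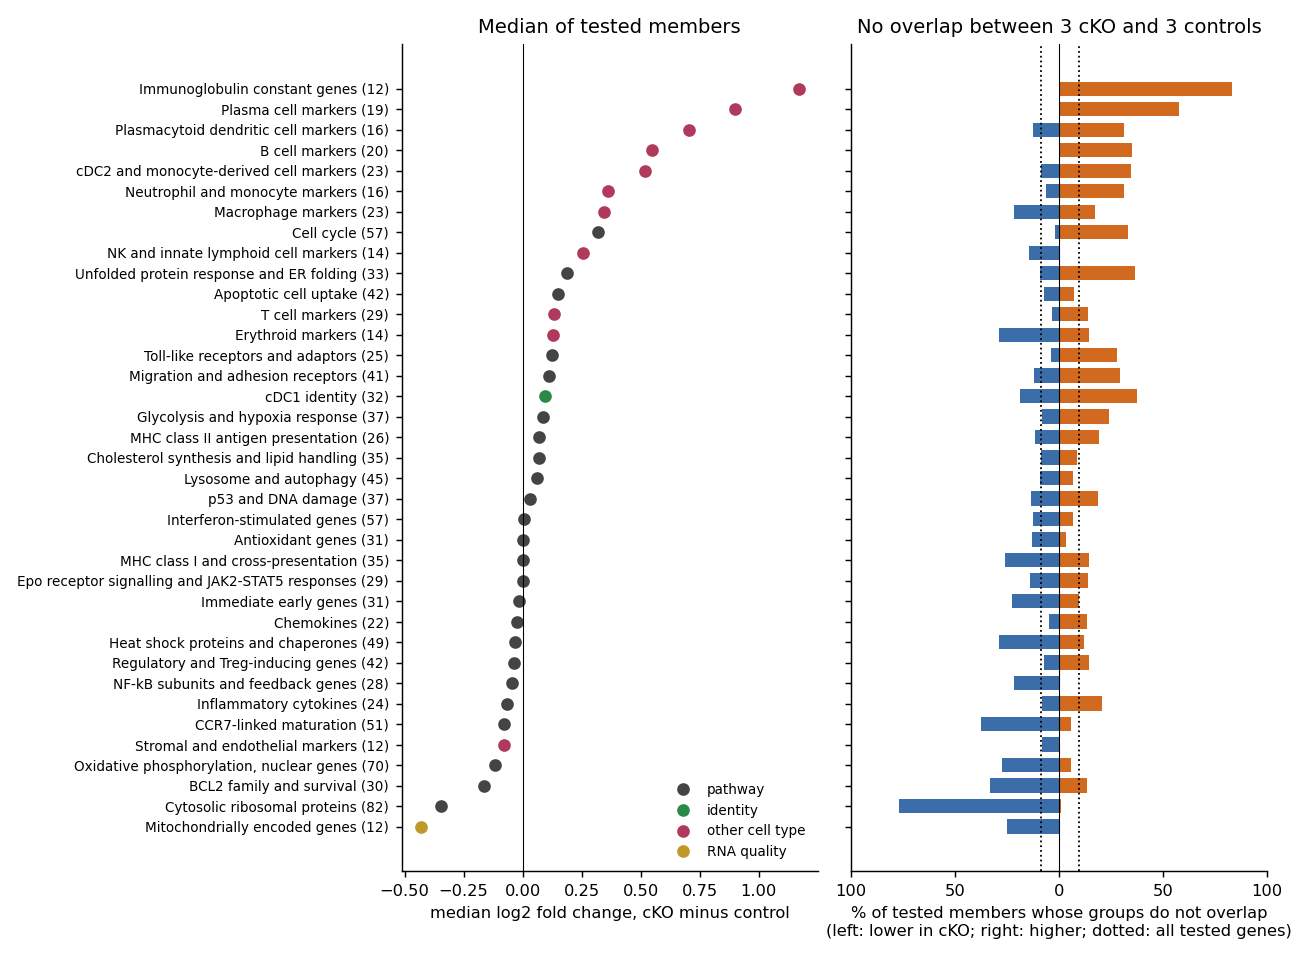
Left, median log2 fold change of the tested members of each gene list of 10 or more (number tested in brackets). Right, percentage of members whose cKO libraries all lie above (orange) or below (blue) the controls, with dotted lines at the 9.54% and 8.42% of all tested genes, which the ribosomal protein genes pass on the lower side and the antibody constant genes on the higher side.

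Cell cycle genes lay higher without any passing. Of 57 tested, 12 were higher and none lower at an unadjusted p under 0.05, 19 lay higher and 1 lower without overlap, and the median was 0.32. Stmn1, a microtubule regulator, had 59, 59.4 and 83 CPM in controls and 99.2, 98 and 97.7 CPM in cKO (0.55 ± 0.13, adjusted p = 0.0749). Without control replicate 3, 2 of the cell cycle genes passed. Among 37 genes of p53 and DNA damage 1 rose, Rad50 (chr11:53649519-53707319), a subunit of the MRN complex that senses double-strand breaks. Rad50 had 132, 142 and 141 CPM in controls and 199, 218 and 185 CPM in cKO (0.54 ± 0.08, adjusted p = 0.00654). Among 37 glycolysis and hypoxia genes 1 rose, Ldha (chr7:46841475-46855627), which converts pyruvate to lactate. Ldha had 128, 126 and 140.2 CPM against 207, 202 and 175 CPM (0.57 ± 0.11, adjusted p = 0.0288). The groups of Rad50 and Ldha did not overlap, and the medians of their lists were 0.03 and 0.09. Rad50 passed with each spleen library left out in turn, and Ldha did not pass without control replicate 1 or 2 or cKO replicate 1 or 2.

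Other rises were of genes at low level. Gbp2b (chr3:142594847-142619179), an interferon-inducible GTPase, had 0.665, 0.562 and 1.08 CPM in controls and 4.78, 4.03 and 4.49 CPM in cKO (2.52 ± 0.39, adjusted p = 0.00649). The 57 interferon-stimulated genes tested held no call and had a median of 0.01. Slc6a13, a GABA transporter, had 0.454, 0.803 and 0.945 CPM against 2.92, 3.99 and 2.83 CPM (adjusted p = 0.0106). In both genes every cKO library was above the controls. Car1, the carbonic anhydrase 1 of red cell precursors, had 1 count over the 3 controls and 365 counts over the cKO libraries, a ratio of 312 (95% exact interval 55.6 to 12353, adjusted p = 0.0116). It was the only called gene among 14 tested erythroid markers, and it did not pass without any 1 of the cKO libraries. Hba-a1, an alpha globin gene chosen after its values were seen, had 50.2, 39.4 and 57.5 CPM in controls and 30.3, 34.9 and 33.6 CPM in cKO (adjusted p = 0.343), the other direction. At higher level Tmem214 (chr5:30868012-30879180), an ER membrane protein, had 16.5, 13.2 and 20.3 CPM in controls and 29.9, 35.6 and 34.5 CPM in cKO (1.00, adjusted p = 0.00702).

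Several genes outside the lists fell. Supt6 (chr11:78206746-78245987), a histone chaperone of transcription elongation, had 146, 143 and 123 CPM in controls and between 96.8 and 104 CPM in cKO (-0.45, adjusted p = 0.0285). Upf2 (chr2:5951469-6056703), a factor of nonsense-mediated decay, had 92.9, 84.7 and 76.5 CPM against 58.1, 53.7 and 63.4 CPM (-0.54, adjusted p = 0.0448). Atrx (chrX:105797615-105929403), a chromatin remodeller, had 966, 978 and 757 CPM against 659, 625 and 711 CPM (-0.44, adjusted p = 0.0452). The cKO libraries of these 3 genes lay below all controls. Traf5 (chr1:191997205-192092559), an adaptor of TNF receptors, had 63.5, 59.1 and 51.2 CPM in controls and 40.4, 39.9 and 41.6 CPM in cKO (-0.51, adjusted p = 0.0371). Ehf (chr2:103263433-103303278), an ETS transcription factor, had 122, 119.9 and 114 CPM against 81.6, 83 and 94 CPM (-0.46, adjusted p = 0.0371). Fbxo32, a ubiquitin ligase subunit, fell from a low level, with 3.63, 6.47 and 4.89 CPM in controls and 0.999, 1.13 and 2.35 CPM in cKO (-1.74, adjusted p = 0.0452). Supt6, Upf2, Atrx, Traf5 and Ehf passed with control replicate 3 left out but with none of the other spleen libraries left out.

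Markers of other cells were mostly without calls. Of 20 B cell markers none passed, 5 were higher and none lower at an unadjusted p under 0.05, 7 lay higher without overlap, and their summed level was between 103 and 139 CPM in controls and between 148 and 160.5 CPM in cKO. Neutrophil and monocyte markers, with none of 16 called, summed to between 112 and 130.3 CPM in controls and between 164 and 184 CPM in cKO, and the defining gene Ly6g was at 0 in every library. Their sums did not overlap. Plasmacytoid dendritic cell markers, with none of 16 called, summed to between 837 and 1050.2 CPM in controls and between 716 and 845 CPM in cKO, which overlapped, although the median of the list was 0.70. Of 29 T cell markers Ms4a4b and Acap1 rose, but neither passed without control replicate 1 or without cKO replicate 1, Acap1 did not pass without cKO replicate 2 and Ms4a4b did not pass without cKO replicate 3. Cd3e, chosen after its values were seen, was at or under 0.366 CPM in every library. Of 23 macrophage markers 1 fell, Spic (chr10:88674772-88685015), a factor of red pulp macrophages, with 89.4, 67.1 and 73.1 CPM in controls and 45, 49.3 and 41 CPM in cKO (-0.76 ± 0.15, adjusted p = 0.0326). Spic did not pass without control replicate 1 or without any 1 of the cKO libraries. Natural killer and stromal lists held no call among 14 and 12 tested members. The cDC2 list held none among 23, with 8 higher and 2 lower without overlap and a median of 0.52, while its summed level lay between 538 and 575 CPM in controls and between 547 and 550.3 CPM in cKO. Platelet, basophil and mast cell markers held none among 7, with a median of 0.75, and summed to between 32.5 and 41.2 CPM in controls and between 54.8 and 64.5 CPM in cKO, without overlap. Much of this sum was Kit, a receptor also of blood progenitors, with 26.6, 30.7 and 26 CPM in controls and 36.2, 39.4 and 43.2 CPM in cKO (adjusted p = 0.177), and the defining genes Mcpt4 and Gp1bb were at 0 in every spleen library. The part of other cells in the results was not tested. Of all 39 lists, 15 held a called gene and 24 held none.

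Lymph node cDC1s of the same genotypes gave 79 called genes (0.455%), and 10 genes were called in both tissues, 4 of them in the same direction. Outside the antibody loci these were Tpm2 and Rad50. In lymph node Tpm2 had a log2 fold change of 1.43 (adjusted p = 3.93e-05) and Rad50 one of 0.86 (adjusted p = 3.48e-05), against 0.89 and 0.54 in spleen. The difference of the effect between tissues passed for 55 genes (0.317%), of which 27 were among the 106 called in spleen. These 27 comprised 14 antibody genes and 13 others. Spic, at -0.76 in spleen, had 0.60 in lymph node (adjusted p of the difference 0.0102). Itgb7, at 0.76 in spleen, had -0.30 in lymph node (adjusted p of the difference 0.041), and Rac2, at 0.60, had -0.30 (0.0267). For Hspb1 the difference did not pass, at -1.02 in spleen and -0.56 in lymph node (0.349). Cd8a had a log2 fold change of -0.20 in spleen and 0.51 in lymph node, a difference that passed (adjusted p = 0.0178). The labels call the lymph node cells migratory and the spleen cells not, so that an effect of the tissue and of the kind of cDC1 cannot be told apart. Without control replicate 3 of the spleen the count of differing genes was 222, and without cKO replicate 1 it was 29.

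**Figure D5:**
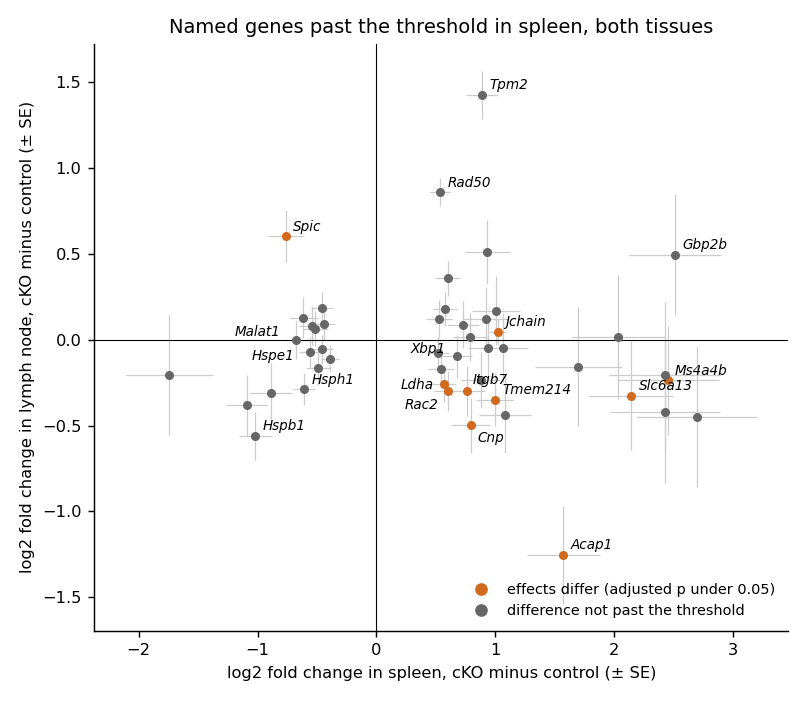
Log2 fold change, cKO minus control, in lymph node against spleen for the named genes past the threshold in spleen outside the antibody loci (points, estimate; bars, SE; orange, the effects differ past the threshold). Car1 is not drawn. Tpm2, at 0.89 in spleen and 1.43 in lymph node, and Rad50, at 0.54 and 0.86, have the highest lymph node values, and Spic, at -0.76 and 0.60, lies on opposite sides.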

How the data were processed

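The deposited table holds whole-number gene counts, made by the authors with HISAT2 2.1.0 and featureCounts 2.0.8, per the submitters' processing notes and the file headers, on GRCm38 with Ensembl release 100. The file headers show unstranded counting of paired reads in which each read end adds to the count, so antisense and overlapping genes cannot be told apart. Per the labels' protocols, the SMART-Seq kit received 10 ng of RNA, tagmentation received 150 pg of cDNA, and no molecular identifiers are mentioned. Symbols were found for 99.4% of 55487 genes. No column of another sample was used (0).

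Counts of 12 libraries (3 per group) were fitted together with edgeR 4.0.16 in R 4.3.3: TMM scaling, filterByExpr (minimum count 10, minimum total 15), robust quasi-likelihood tests and Benjamini-Hochberg adjustment at 0.05. DESeq2 1.42.0, other scalings, filters, designs and left-out libraries were alternatives. The procedure was tested on simulated data. CPM use effective library sizes. A floor is 3 counts and intervals are exact at 95%. Named genes were the surface marker and target genes, the largest called changes per direction at 2 levels of expression, every called list member, the smallest p of lists without calls, and antibody constant genes with the V segments of smallest p. The members and lists were chosen with earlier results of these data known.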

Additional observations from a re-analysis of the deposited data

Results flagged for a closer look

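For 21 named genes the effect of the knockout differed between spleen and lymph node by edgeR's test of the difference (Benjamini-Hochberg adjusted p under 0.05). The values are spleen minus lymph node, in log2 units of cKO minus control, and no cause was tested. Among antibody genes and Jchain the difference was 0.98 for Jchain, 3.57 for Ighg2b, 0.82 for Igkc, 0.94 for Igha, 1.83 for Ighg3, 2.42 for Iglc1 and 4.07 for Iglc2. Among V segments it was 8.06 for Iglv3, 11.92 for Igkv10-96 and -5.04 for Igkv6-23. Igkv6-23 was higher in cKO in both tissues, while Igkv10-96 and Iglv3 were higher in spleen and lower in lymph node. All 3 lymph node cKO libraries had 0 CPM of Igkv10-96, so that its fitted value depends on the prior count and is no bound.

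Among the other genes higher in the cKO spleen it was 1.35 for Tmem214, 2.47 for Slc6a13, 2.69 for Ms4a4b, 0.82 for Ldha, 1.06 for Itgb7, 0.90 for Rac2, 2.83 for Acap1, 1.29 for Cnp and 0.90 for Egr1. Egr1, an immediate early gene, did not itself pass in spleen (adjusted p = 0.0509). For Spic the difference was -1.37 and for Cd8a -0.71. Spic fell in spleen and did not pass in lymph node, whereas Cd8a rose in lymph node and did not pass in spleen.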

How the results depend on the processing

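The 106 genes called in spleen became 436 with no filter on low counts, 642 with DESeq2, 57 with the level of Lars2 and Gm23935 as a covariate, an alternative chosen after seeing the data, and 20 with antibody, plasma cell and B cell genes left out. The 55 genes whose effect differed between tissues became 364, 514, 85 and 16 under the same settings. When 1 spleen library was left out, the counts ranged from 31 to 379 and from 29 to 222, and the Epor ratio ranged from 0 to 1.13. The highest counts came without control replicate 3. Between control and cKO spleen libraries the replicate numbers showed no pairing: the correlations of same-numbered deviations were -0.0009, 0.0064 and -0.018. With a replicate block, counts were 61, of which 46 were among the 106, and 22. Pairing across tissues was not tested. Other scalings, a stricter filter, non-robust dispersion and the spleen libraries alone gave between 94 and 135 genes. The spleen libraries alone gave 101, of which 62 were among the 106, and 25 named genes lost the call. No named gene past the threshold changed direction, and the other called genes were not followed. The Epor ratio, which has no test, turned from below 1 to above 1 without control replicate 3. The causes were not tested. Of 49 named called genes outside the antibody loci, Jchain, Hspb1 and Rad50 passed in every alternative run for them, and 34 lost the call in 5 or more of up to 17. Depth limits Epor and genes near 3 counts.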

Other observations

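Genes outside the rule for naming were chosen here after their values were seen. Clu, the secreted chaperone clusterin, had 45.1, 38.7 and 37.7 CPM in controls and 63.2, 68.4 and 59.4 CPM in cKO (log2 fold change 0.65, adjusted p = 0.00399 by edgeR). Ahcy, which breaks down S-adenosylhomocysteine, had 2, 2.81 and 3.47 CPM against 7.51, 7.35 and 9.74 CPM (1.57, adjusted p = 0.0367). In both genes every cKO library was above the controls. Over the 2837 tested genes with a single exon block the median log2 fold change was -0.21, against 0 over all genes.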
